A study of Homo sapiens with 12 samples.

Results

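The MYC, MAX and MXD network was described here through 10 genes: MYC, MYCN, MYCL, MAX, MXD1, MXD3, MXD4, MXI1, MNT and MGA. They were picked by symbol, with earlier results of these data known, and all 10 were found among the 56609 symbols of the deposited count table. Of these, 9 passed the filter on low counts and were tested among 21698 genes, and MYCN did not. RNA was sequenced from A375, an established human melanoma line that was either wild type or had lost MAPKAPK2, which encodes the stress kinase MK2, by CRISPR/Cas9 editing. Cells of each genotype were kept for 48 h with 500 nM JQ1, an inhibitor that displaces BET bromodomain proteins from acetylated chromatin, or with the solvent DMSO. The 4 groups, wild-type DMSO, wild-type JQ1, knockout DMSO and knockout JQ1, held 3 replicate libraries each. Sample titles call the solvent groups untreated, and the treatment field, which says DMSO, was followed. Whether the knockout cells were 1 clone or a pool is not given in the sources used here, so a difference between genotypes cannot be told apart from a difference between 2 cell stocks. Nothing in the labels says that replicates came from separate cultures, so p-values measure only the spread between these libraries, which may be technical.

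MYC proteins are transcription factors that bind DNA only as heterodimers with MAX, and they drive genes of growth, ribosome production and metabolism. MXD1, MXD3, MXD4, MXI1, MNT and MGA also pair with MAX and occupy the same E-box sites, where they recruit corepressors, so the balance of the partners is as much a property of the network as the level of MYC. MYC transcription in many blood cancers is sensitive to BET inhibitors, which is the reason its level is often read out after JQ1.

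Libraries held between 25316899 and 34594295 estimated counts. MAPKAPK2 stood at 11.1 to 15.7 CPM (counts per 1000000 after scaling) in the libraries labelled knockout and at 87.9 to 119.7 CPM in wild type. Knockout JQ1 replicate 3 stood apart: chi-square per degree of freedom against its fellow replicates was 25.5 and 26.8, and it was 3.32 to 7.58 for the other replicate pairs. The main values that rest on that library are given with and without it. The melanocyte-lineage regulator SOX10 was at 437 to 563 CPM and MITF at 28.8 to 43.1 CPM, while the pigmentation genes PMEL, MLANA, TYR, DCT and TYRP1 were at about 1 CPM or less. SOX10 rose with JQ1 in wild type and in knockout (edgeR adjusted p = 0.0189 and 0.019), and MITF was not called (0.22 and 0.499). In DMSO, MITF was lower and S100B higher in knockout than in wild type (edgeR adjusted p = 0.000323 and 0.000403). Summed marker levels ran from 460 to 766 CPM for the melanocyte lineage (8 genes), from 8.1 to 13.3 CPM for fibroblasts (6 genes), from 4 to 7.12 CPM for keratinocytes (5 genes, KRT1 at 0), from 10.7 to 20.3 CPM for leukocytes (5 genes) and from 0.812 to 2.35 CPM for endothelium (3 genes). The sums moved with the groups, with overlap in some comparisons. The leukocyte sum was 17.8 to 20.3 CPM in wild-type DMSO and 15.8 to 18 in wild-type JQ1. In knockout it was 13.9 to 19.2 in DMSO and 10.7 to 11.9 with JQ1. In the same order, the melanocyte sum was 501 to 516, 587 to 677, 460 to 535 and 560 to 766 CPM. The fibroblast sum was 11.8 to 13.3, 10.5 to 13.2, 9.61 to 11 and 8.1 to 9.58 CPM. The keratinocyte sum was 5.69 to 7.12, 5.16 to 5.5, 5.41 to 6.35 and 4 to 5.29 CPM. The endothelium sum was 1.95 to 2.35, 1.13 to 1.3, 1.22 to 1.93 and 0.812 to 1.64 CPM. The fibroblast gene LUM fell with JQ1 from a mean of 3.86 to 0.504 CPM in wild type and from 4.36 to 0.631 CPM in knockout (edgeR adjusted p = 6.91e-07 and 7.57e-07), and the leukocyte gene LYZ from 2.44 to 0.856 and from 2.46 to 1.06 CPM (edgeR adjusted p = 1.8e-05 and 0.000103). The fibroblast gene PDGFRA went the other way, from 6.56 to 10.3 CPM in wild type and from 4.63 to 7.1 CPM in knockout (edgeR adjusted p = 0.00161 and 0.00314). The leukocyte gene CD68 was at 15.2 CPM in both wild-type groups (edgeR adjusted p = 0.971). In knockout CD68 fell with JQ1 from 13.6 to 9.15 CPM (edgeR adjusted p = 0.00617). The part of these markers in the results was not tested.

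Of the MYC paralogs, MYC itself was the one with a substantial signal in these cells, and it was higher in knockout cells than in wild type. MYC read 10.3, 10.5 and 10.9 CPM in wild-type DMSO, replicates 1 to 3, and 13.85, 15.6 and 15.3 CPM in knockout DMSO. The lowest knockout library lay above the highest wild-type library. The knockout level was 1.41-fold the wild-type level, a log2 difference of 0.50 (SE 0.11, 95% interval 0.27 to 0.72, edgeR adjusted p = 0.00835, n = 3 per group). That call was kept in all 20 alternative analyses, in which the log2 difference ran from 0.45 to 0.56. In bulk samples such as these, fewer cells of a type and less RNA per cell cannot be told apart.

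In wild-type cells with JQ1, MYC read 9.20, 9.80 and 9.70 CPM. Each of these libraries lay below each of the wild-type DMSO libraries, but the difference, -0.14 on the log2 scale, did not pass the test (SE 0.11, 95% interval -0.37 to 0.09, edgeR adjusted p = 0.352). In the main fit the interval spans folds of 0.772 to 1.06, so a fall to below 0.772 of the DMSO level lies outside it. When scaled by library totals alone, the wild-type log2 change was -0.27 (edgeR adjusted p = 0.0557), also not called. The interval was taken with the main scaling only, so the bound was not checked under other scalings. In knockout cells with JQ1, MYC read 11.6, 10.7 and 14.5 CPM. Replicates 1 and 2 lay below all knockout DMSO libraries, and replicate 3, the library that stood apart, lay among them. With all 12 libraries the log2 change was -0.27 (SE 0.11, 95% interval -0.50 to -0.05, edgeR adjusted p = 0.0601), and without replicate 3 it was -0.42 (SE 0.09, edgeR adjusted p = 0.00253), a fold of 0.75. With all 12 libraries it also passed when scaled by library totals alone (-0.39, edgeR adjusted p = 0.00722). It passed too with the authors' factors as offsets (-0.39, edgeR adjusted p = 0.0293) and with limma on the authors' signal (-0.41, adjusted p = 0.0241). Those factors are specific to gene and library. The call thus depended on library scaling, on those factors and on replicate 3.

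**Figure D1:**
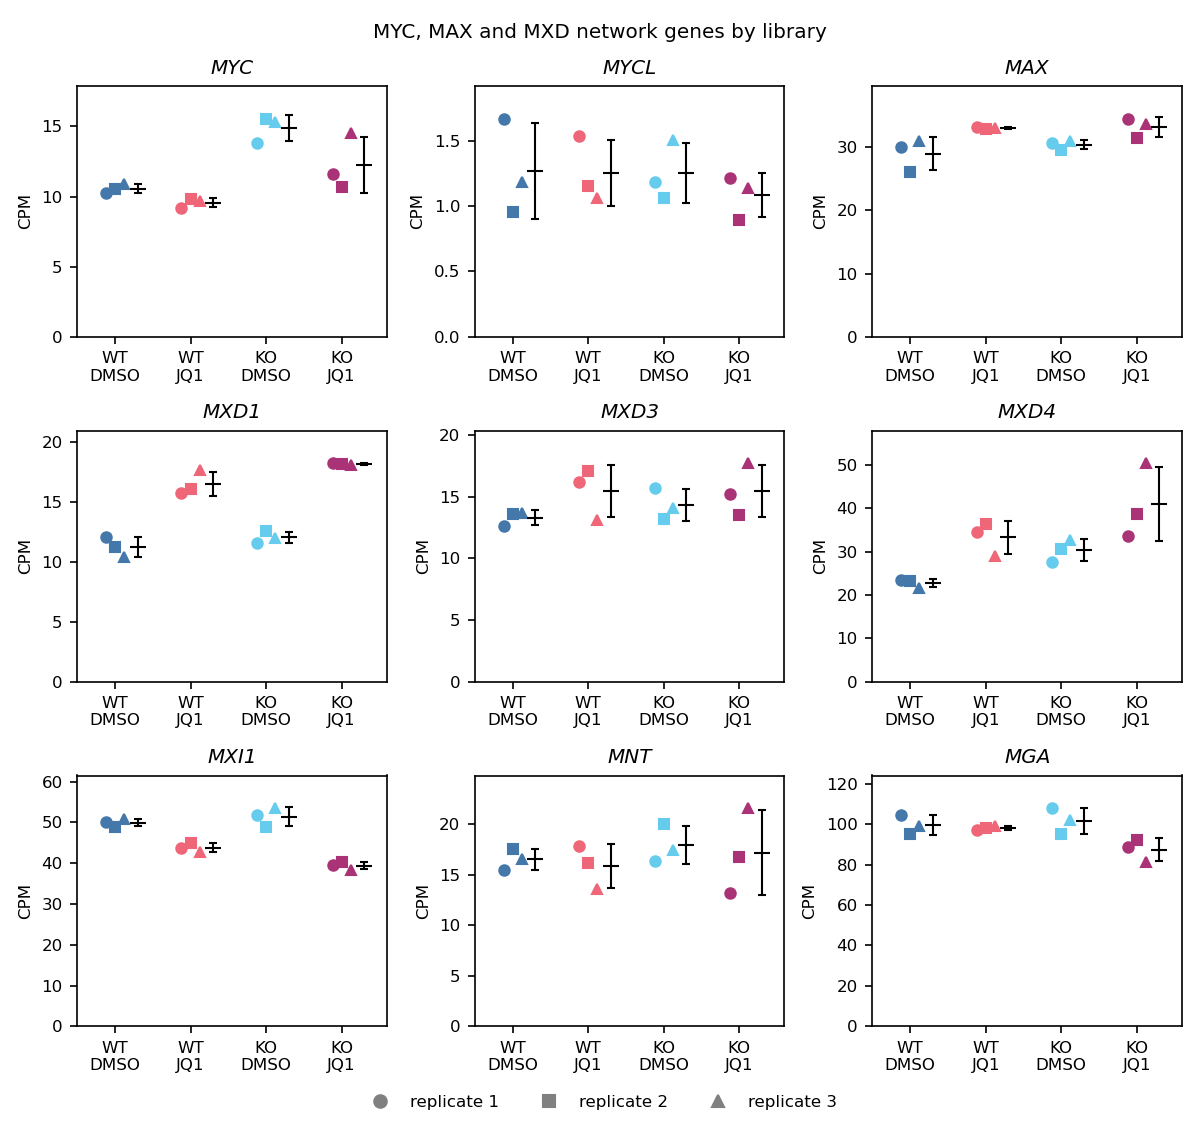
Level of each network gene in CPM, by group; points are libraries and black bars the mean ± SD of 3 replicates. MYC sits at 13.85 to 15.6 CPM in knockout DMSO, above 10.3 to 10.9 CPM in wild-type DMSO, and MXD1 is higher in both JQ1 groups.

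Under JQ1, MYC was still 1.29-fold higher in the knockout libraries, without overlap, at a log2 difference of 0.37 (SE 0.11, edgeR adjusted p = 0.0515). This narrowly missed the threshold. It was 0.22 without knockout JQ1 replicate 3 (edgeR adjusted p = 0.159) and 0.45 without knockout JQ1 replicate 2 (edgeR adjusted p = 0.0219), and DESeq2 gave 0.37 with an adjusted p of 0.0255. Whether the response to JQ1 differed between genotypes was tested as the interaction, knockout minus wild type. For MYC it was -0.13 (SE 0.15, 95% interval -0.46 to 0.19, edgeR adjusted p = 0.871). Without replicate 3 it was -0.27 (unadjusted p = 0.0450, edgeR adjusted p = 0.362).

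MYCL, a paralog first found amplified in lung cancer, read between 0.893 and 1.67 CPM in all libraries, and its groups overlapped in each comparison. Its log2 change with JQ1 was -0.03 in wild type (SE 0.24, edgeR adjusted p = 0.949) and -0.20 in knockout (SE 0.25, edgeR adjusted p = 0.588). These intervals, -0.55 to 0.49 and -0.75 to 0.34, are the widest of the tested members, at 22 to 56 counts per library. MYCN, the paralog of neuroblastoma, had 5, 5 and 1 counts in wild-type DMSO, 2, 0 and 0 in wild-type JQ1, 2, 2 and 0 in knockout DMSO and 0 in each knockout JQ1 library. A count of 0 there allows up to 0.095 to 0.122 CPM per library (3 counts, counting error only). Wild-type DMSO replicates 1 and 2 stood at 0.149 and 0.177 CPM and replicate 3 at 0.0275 CPM, and no difference was tested at these counts.

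MAX, the partner that the other members share, was not called in any comparison. It read 30.0, 26.0 and 31.0 CPM in wild-type DMSO and 33.2, 32.8 and 33.1 CPM with JQ1, a log2 difference of 0.19 (SE 0.07, 95% interval 0.03 to 0.34, edgeR adjusted p = 0.0610). The groups did not overlap, yet the call was missed, and it was made in 6 of 20 alternatives, among them the analysis without knockout JQ1 replicate 3 (edgeR adjusted p = 0.0387). In knockout cells MAX read 30.6, 29.6 and 31.0 CPM in DMSO and 34.5, 31.4 and 33.7 CPM with JQ1, again without overlap and short of the threshold (log2 0.13, SE 0.07, edgeR adjusted p = 0.192). Between genotypes its log2 difference was 0.07 in DMSO and 0.01 under JQ1 (edgeR adjusted p = 0.700 and 0.967), and the second of these changed sign in 6 of 20 alternatives.

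The antagonists of the MXD family moved in different directions with JQ1: MXD1 and MXD4 rose and MXI1 fell in both genotypes, while MXD3 did not pass the test. In wild type 3 of the 9 tested members were called, 2 higher and 1 lower, where 33.1% of all tested genes were called, 16.9% higher and 16.2% lower. In knockout cells 4 members were called, 2 higher and 2 lower, against 34.4% of all tested genes, 16.7% higher and 17.8% lower. Groups did not overlap for 5 members in each genotype, against 50.4% of tested genes in wild type and 42.3% in knockout. With 9 members, these shares are near the background of all tested genes and are not a result about the network. The JQ1 comparisons in the 2 genotypes use separate libraries, whereas the JQ1 and knockout comparisons in wild-type cells share the wild-type DMSO libraries.

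MXD1, a repressor induced during differentiation of many cell types, rose in both genotypes, by about the same amount. It read 12.04, 11.2 and 10.4 CPM in wild-type DMSO and 15.7, 16.0 and 17.6 CPM with JQ1. In knockout cells it read 11.6, 12.5 and 12.01 CPM in DMSO and 18.2, 18.1 and 18.1 CPM with JQ1. All JQ1 libraries of both genotypes lay above all DMSO libraries. The log2 rise was 0.55 in wild type (SE 0.08, 95% interval 0.38 to 0.73, edgeR adjusted p = 0.000119) and 0.59 in knockout (SE 0.08, 95% interval 0.41 to 0.77, edgeR adjusted p = 5.99e-05). These are folds of 1.47 and 1.51, the call was made in all 20 alternatives in each genotype, and knockout JQ1 replicate 3 did not change the value in knockout cells (0.59 without it). The difference of the responses was 0.04 (95% interval -0.21 to 0.29, edgeR adjusted p = 0.966).

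MXD4, a repressor linked to the exit from proliferation, rose with JQ1 as well but with more spread. It read 23.5, 23.1 and 21.7 CPM in wild-type DMSO and 34.4, 36.3 and 29.1 CPM with JQ1, a log2 rise of 0.55 (SE 0.13, 95% interval 0.28 to 0.82, edgeR adjusted p = 0.00373). The knockout libraries read 27.6, 30.6 and 32.6 CPM in DMSO and 33.7, 38.7 and 50.3 CPM with JQ1. Replicate 3 was the highest of these by a wide gap. The log2 rise in knockout was 0.44 with it (SE 0.12, edgeR adjusted p = 0.0132) and 0.26 without it (edgeR adjusted p = 0.0495), and it missed the threshold without knockout DMSO replicate 1 (edgeR adjusted p = 0.0526). Before the drug, MXD4 was already higher in knockout than in wild-type libraries without overlap, by 0.41 on the log2 scale (SE 0.13, edgeR adjusted p = 0.0637). This difference missed the threshold, but it passed in 6 of 20 alternatives, with DESeq2 and without knockout JQ1 replicate 3 (edgeR adjusted p = 0.00544) among them.

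MXI1, also known as MXD2, was the most abundant MXD transcript per kilobase and moved the other way. It read 50.01, 49.0 and 50.7 CPM in wild-type DMSO and 43.8, 45.0 and 42.7 CPM with JQ1, a log2 change of -0.19 (SE 0.06, 95% interval -0.31 to -0.07, edgeR adjusted p = 0.0204). Knockout libraries read 51.9, 49.0 and 53.5 CPM in DMSO and 39.5, 40.4 and 38.5 CPM with JQ1, a log2 change of -0.38 (SE 0.06, 95% interval -0.51 to -0.26, edgeR adjusted p = 0.000107). No JQ1 library reached any DMSO library. The wild-type call was lost in 7 of 20 alternatives, with edgeR adjusted p from 0.0601 to 0.0731 when wild-type DMSO replicate 1 or 3, or wild-type JQ1 replicate 1 or 3, was left out. The knockout call was made in all 20. The interaction, -0.20, had an unadjusted p of 0.0288 and did not survive adjustment (edgeR adjusted p = 0.528), so a difference between the genotypes in the fall of MXI1 was not shown.

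MXD3, a repressor found in proliferating cells, read 12.6, 13.6 and 13.7 CPM in wild-type DMSO and 16.2, 17.1 and 13.1 CPM with JQ1, with overlap. Its log2 difference was 0.21 (SE 0.12, edgeR adjusted p = 0.186). In knockout cells it read 15.7, 13.2 and 14.0 CPM in DMSO and 15.2, 13.5 and 17.7 CPM with JQ1 (log2 0.11, SE 0.12, edgeR adjusted p = 0.507). The knockout difference was 0.0028 without knockout JQ1 replicate 3 (edgeR adjusted p = 0.991). The MXD family therefore had 2 members that rose, 1 that fell and 1 that did not pass, in each genotype.

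**Figure D2:**
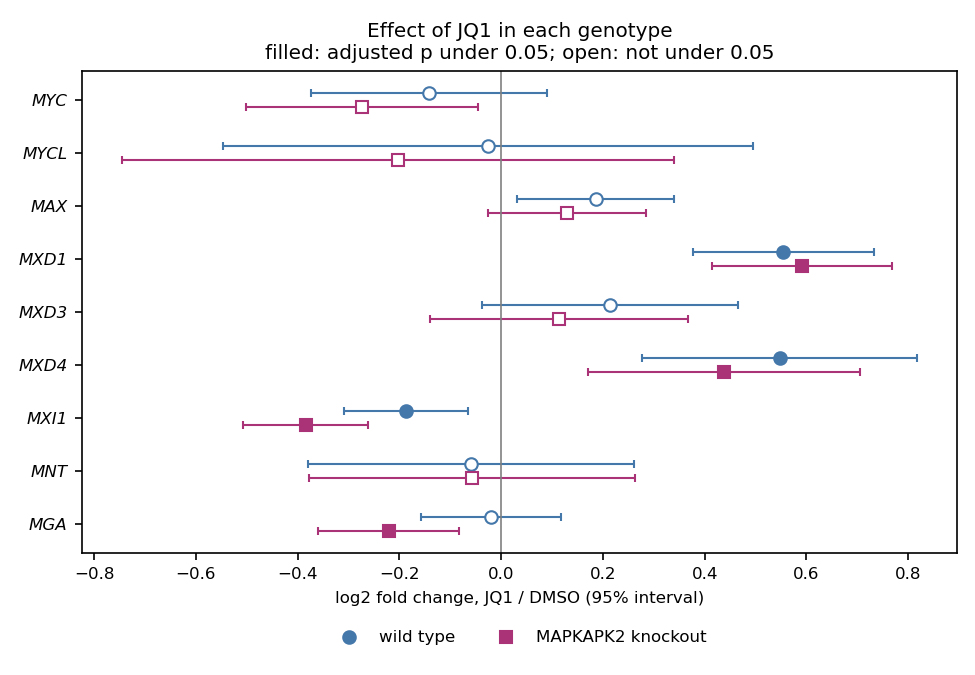
Log2 fold change of JQ1 over DMSO for the 9 tested members in wild-type and in knockout cells, with 95% intervals; filled markers have an adjusted p under 0.05. MXD1 and MXD4 lie above 0 and MXI1 below 0 in both genotypes, and MGA is called only in knockout cells, a difference between genotypes that did not pass the interaction test.

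Promoter sequence is shown for the 2 antagonists that rose, MXD1 and MXD4, and for MNT, because the E-box CACGTG, the site that MYC and MXD proteins share with MAX, was found upstream of MXD4 and MNT and not upstream of MXD1. Sequences are from RefSeq, build GRCh38.p14, 5′ to 3′ on the strand of the gene, and stop before the earliest annotated transcript start, with CACGTG in capitals. MXD1 is the stretch chr2:69914859-69915040 on the plus strand, MXD4 is chr4:2262295-2262359 on the minus strand and MNT is chr17:2401119-2401310 on the minus strand.
MXD1: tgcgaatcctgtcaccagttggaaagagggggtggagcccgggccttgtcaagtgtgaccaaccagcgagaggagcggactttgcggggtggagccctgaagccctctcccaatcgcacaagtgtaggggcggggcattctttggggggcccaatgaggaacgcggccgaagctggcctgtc
MXD4: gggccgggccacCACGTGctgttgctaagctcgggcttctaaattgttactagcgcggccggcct
MNT: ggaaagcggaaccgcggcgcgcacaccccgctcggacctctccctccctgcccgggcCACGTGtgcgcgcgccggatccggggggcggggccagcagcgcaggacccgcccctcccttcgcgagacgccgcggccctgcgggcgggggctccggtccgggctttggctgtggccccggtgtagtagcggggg

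The motif CACGTG reads the same on both strands. It begins 53 bases before the end of the MXD4 stretch and 135 bases before the end of the MNT stretch. Over the 250 bases before each RefSeq start, it was present in 2 of the 14 windows matched to 9 members (all but MYC), and in 6.34% of the 35116 windows of all genes. MXD4, with the motif, and MXD1, without it, had log2 rises of 0.55 each in wild type, and MNT, with the motif, did not pass the test. MXI1, without the motif, fell. Whether the motif bears on the response to JQ1 was not tested.

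MNT, the broadly expressed MAX partner that is present in cycling and resting cells alike, read 15.5, 17.6 and 16.6 CPM in wild-type DMSO and 17.9, 16.1 and 13.6 CPM with JQ1. In knockout cells it read 16.4, 20.0 and 17.4 CPM in DMSO and 13.2, 16.8 and 21.6 CPM with JQ1. The groups overlapped in every comparison, and the log2 changes with JQ1 were -0.06 in each genotype (SE 0.15 each, edgeR adjusted p = 0.805 and 0.815). The highest knockout JQ1 library was again replicate 3, without which the change in knockout cells was -0.26 (edgeR adjusted p = 0.139).

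MGA, the large MAX partner that also carries a T-box domain and belongs to the PRC1.6 repressor complex, read 105, 95.1 and 98.9 CPM in wild-type DMSO and 97.3, 98.2 and 99.3 CPM with JQ1. The log2 difference was -0.02 (SE 0.06, 95% interval -0.16 to 0.12, edgeR adjusted p = 0.851). In knockout cells it read 108, 95.1 and 102 CPM in DMSO and 88.7, 92.3 and 81.2 CPM with JQ1, a fall of 0.22 on the log2 scale without overlap (SE 0.06, edgeR adjusted p = 0.0154). Without knockout JQ1 replicate 3 the change was -0.17 (edgeR adjusted p = 0.0371), and the call was lost without knockout DMSO replicate 1 (edgeR adjusted p = 0.0906) and with only the groups compared in the fit (edgeR adjusted p = 0.0793). The interaction was -0.20 (unadjusted p = 0.0441, edgeR adjusted p = 0.575).

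**Figure D3:**
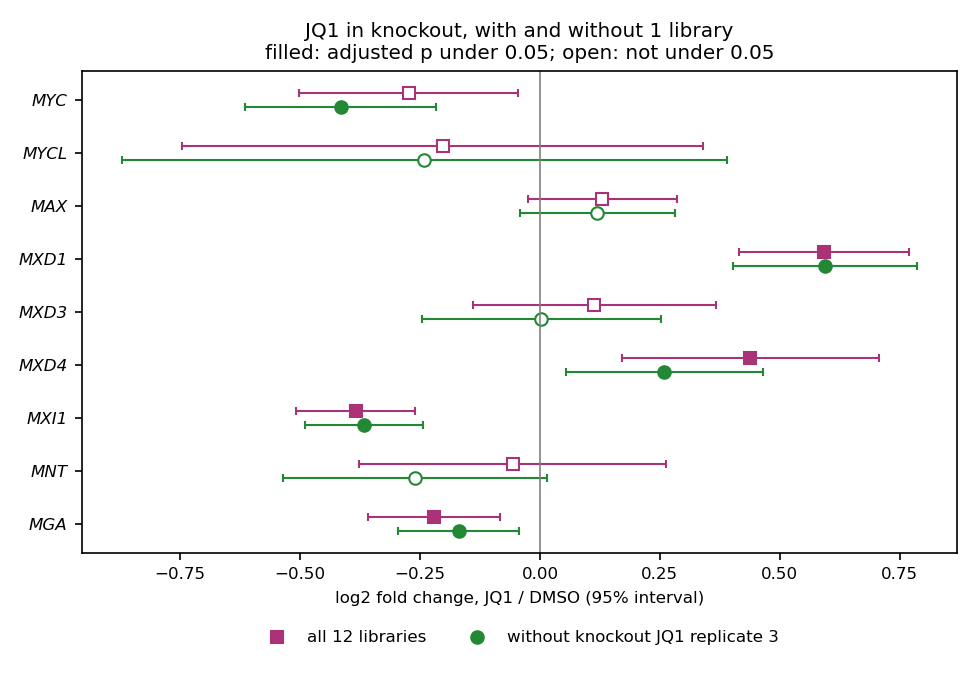
Log2 fold change of JQ1 over DMSO in knockout cells with all 12 libraries and without knockout JQ1 replicate 3, with 95% intervals; filled markers have an adjusted p under 0.05. MYC moves from -0.27 to -0.42 and becomes called, MXD4 moves from 0.44 to 0.26, and MXD1 stays at 0.59.

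Between genotypes in DMSO, MYC was the 1 member called of 9, and it was higher, against 7.92% of all tested genes called and 3.47% called higher, and groups did not overlap for 2 members, MYC and MXD4, against 29.6% of tested genes. The other 7 tested members differed by -0.03 to 0.12 on the log2 scale, with edgeR adjusted p of 0.575 or more. Under JQ1 none of the 9 was called by edgeR, against 8.57% of tested genes. An unadjusted p under 0.05 was found for 4 members, against 20.7% of tested genes, and DESeq2 called 1 member, MYC. In that comparison the groups did not overlap for 4 members, against 23.1% of tested genes: MYC and MXD1 were higher in knockout, and MXI1 and MGA were lower. For MXI1 the log2 difference was -0.15 (SE 0.06, edgeR adjusted p = 0.133) and for MGA it was -0.17 (SE 0.06, edgeR adjusted p = 0.137). No member had an interaction past the threshold with edgeR or with DESeq2, where edgeR called 0.134% of all tested genes. An unadjusted edgeR p under 0.05 was found for 2 members, against 8.37% of tested genes.

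**Figure D4:**
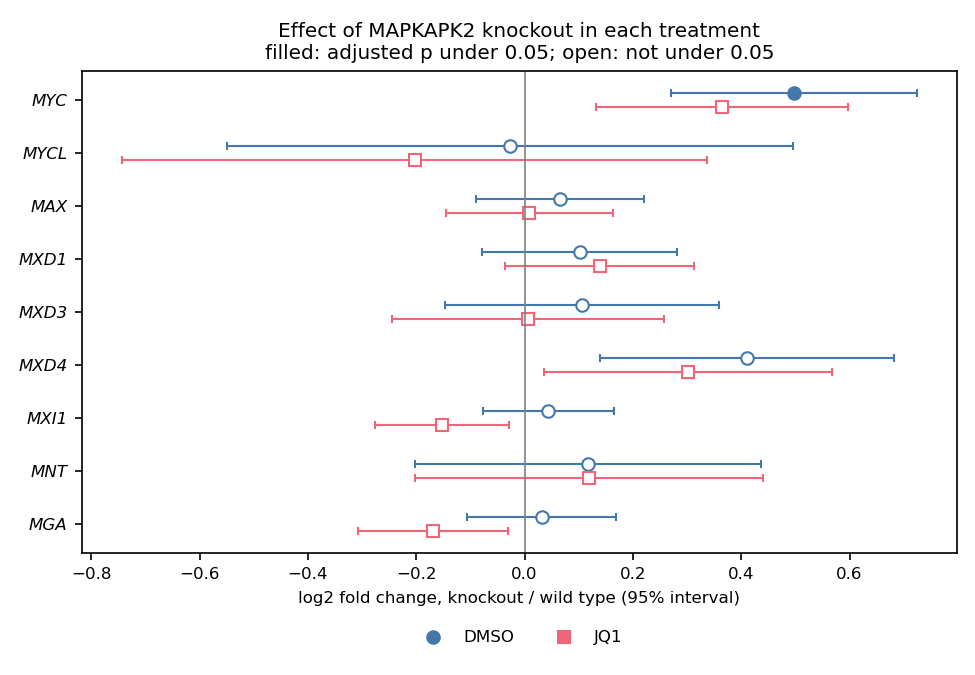
Log2 fold change of knockout over wild type for the 9 tested members, in DMSO and under JQ1, with 95% intervals; filled markers have an adjusted p under 0.05. MYC in DMSO, at 0.50, is the single filled marker.

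Because the members compete for MAX, the ratio of each antagonist to MYC was taken within every library as the log2 ratio of their counts, as a description; it is not corrected for transcript length. In wild-type DMSO the log2 ratio of MXD1 to MYC was 0.23, 0.09 and -0.07, and with JQ1 it was 0.77, 0.71 and 0.86. In knockout cells it was -0.26, -0.31 and -0.35 in DMSO and 0.65, 0.76 and 0.31 with JQ1. The ratio was thus higher in all JQ1 libraries than in all DMSO libraries, by 0.70 on average in wild type and 0.88 in knockout (1.01 without knockout JQ1 replicate 3). The ratio of MXD4 to MYC was higher by 0.68 and 0.71 (0.68 in knockout without that library), also without overlap. The ratio of MXI1 to MYC differed by -0.05 in wild type and by -0.09 in knockout (0.05 without that library), with overlap. Within the MXD family, the ratio of MXD1 to MXI1 was higher with JQ1 by 0.74 in wild type and 0.98 in knockout (0.96 without that library), without overlap. In DMSO the ratio to MYC differed between knockout and wild type by -0.39 for MXD1, -0.45 for MXI1 and -0.43 for MAX, without overlap, and by -0.09 for MXD4, with overlap.

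**Figure D5:**
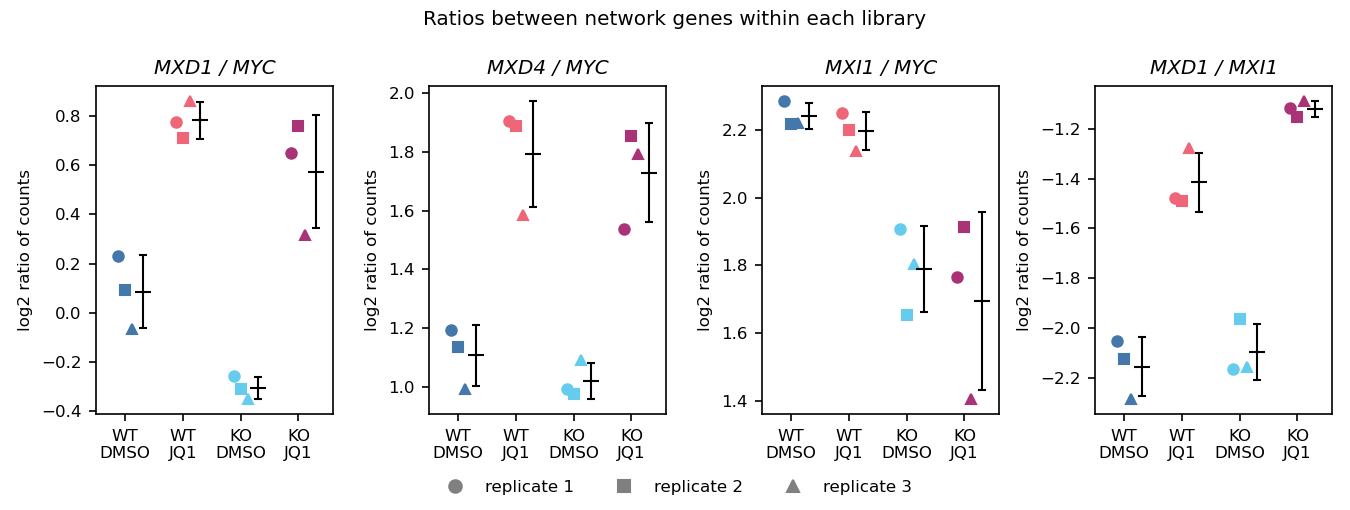
Log2 ratio of counts of MXD1, MXD4 and MXI1 to MYC and of MXD1 to MXI1 in each library, by group, with the mean ± SD of 3 replicates in black. The ratio of MXD1 to MYC is between -0.35 and 0.23 in the DMSO libraries and between 0.31 and 0.86 in the JQ1 libraries.

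Levels of different members can be compared only per length of transcript. In wild-type DMSO, with the median length of the protein-coding transcripts of each gene in GENCODE 29, MXI1 stood at 56.1 CPM per kilobase, MAX at 38.8, MGA at 28.2, MXD3 at 11.4, MYC at 7.73, MNT at 5.9, MXD4 at 5.61, MXD1 at 2.01, MYCL at 0.699 and MYCN at 0.0549. With the longest transcript in place of the median, MXI1 was at 14.4, MAX at 9.19, MGA at 6.9, MXD3 at 5.86, MXD4 at 5.61, MYC at 4.46, MNT at 3.31 and MXD1 at 2.01. MXI1, MAX and MGA led and MXD1, MYCL and MYCN came last on both scales, and MYC stood above MNT on both. MXD4 stood below MYC and MNT with the median length and above both with the longest, so its place is not settled by these data.

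Genes that MYC induces, among them genes of ribosome production, nucleotide synthesis and glycolysis, were called in both directions. Of 30 MYC-induced genes, 29 were tested, where 33.1% of all tested genes were called with JQ1 in wild type, 34.4% in knockout and 7.92% between genotypes in DMSO. In wild type with JQ1, 6 rose and 3 fell, with a median log2 change of -0.01 against -0.03 over all tested genes, and in knockout with JQ1, 9 rose and 5 fell, with a median of 0.04 against 0.00. Among those that rose were the glycolytic enzymes LDHA, from 586 ± 30.6 to 1041 ± 34.2 CPM (log2 0.83, SE 0.06, edgeR adjusted p = 1.84e-07), and ENO1 (log2 0.46, SE 0.04, edgeR adjusted p = 2.44e-06), here with the SD of 3 replicates. Between genotypes in DMSO, where MYC itself was higher in the knockout, 2 of the 29 were higher and 4 lower. The mitochondrial chaperonins HSPD1, from 499 ± 1.43 to 252 ± 15.6 CPM (log2 -0.99, SE 0.06, edgeR adjusted p = 9.45e-08), and HSPE1 (log2 -0.91, SE 0.07, edgeR adjusted p = 2e-06) were lower in the knockout. Without knockout JQ1 replicate 3, 14 of the 29 were called in wild type with JQ1 and 16 in knockout. Calls among all 21698 tested genes were then 8438 and 7495, against 7187 and 7472 with that library.

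Of 6 genes that MYC represses, 5 were tested, and 3 rose and none fell with JQ1 in each genotype, at medians of 0.55 and 0.55, where 16.9% and 16.7% of all tested genes rose. The counts were again 3 and 3 without knockout JQ1 replicate 3, and the knockout median was then 0.44. The cell-cycle inhibitor CDKN1A rose in wild type from 57.6 ± 1.86 to 148 ± 6.54 CPM (log2 1.36, SE 0.06, edgeR adjusted p = 1.55e-09), and NDRG1, a stress-responsive gene, rose by 0.94 (SE 0.07, edgeR adjusted p = 7.96e-08). In knockout DMSO cells these 2 genes differed from wild type in opposite directions: CDKN1A was higher (log2 0.54, SE 0.06, edgeR adjusted p = 5.47e-05) and NDRG1 lower (log2 -1.12, SE 0.07, edgeR adjusted p = 9.15e-08).

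In the MLX arm, a parallel set of factors that sense glucose and share the E-box, 4 of 5 genes were tested. In wild type with JQ1 1 rose and none fell, and in knockout 1 rose and 1 fell. Of all tested genes, 33.1% were called in wild type and 34.4% in knockout. The factors MLX and MLXIP were not called in wild type (edgeR adjusted p = 0.46 and 0.214). MLX was the gene that fell in knockout (edgeR adjusted p = 0.00517). The wild-type count of the arm was 2 without knockout JQ1 replicate 3, where 8438 of 21698 tested genes were called. Its glucose-responsive target TXNIP rose with JQ1 in wild type (log2 0.77, SE 0.08, edgeR adjusted p = 4.74e-06), and in DMSO it was higher in knockout (log2 0.34, SE 0.08, edgeR adjusted p = 0.0160), as was its relative ARRDC4 (log2 0.64, SE 0.11, edgeR adjusted p = 0.00139). The call of TXNIP between genotypes in DMSO was lost when knockout DMSO replicate 2 or 3, or wild-type DMSO replicate 1 or 2, was left out.

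Cofactors and regulators of MYC changed in both directions with JQ1, where 33.1% of all tested genes were called in wild type and 34.4% in knockout. Of 11 cofactors, 1 rose and 2 fell in wild type and 2 rose and 3 fell in knockout. Without knockout JQ1 replicate 3, 6 cofactors were called in wild type and 4 in knockout. Of 21698 tested genes, 8438 and 7495 were then called. The chromatin remodeller BPTF fell in wild type (log2 -0.43, SE 0.10, edgeR adjusted p = 0.00455), and ZBTB17, through which MYC represses genes and which is also called MIZ1, rose (log2 0.38, SE 0.09, edgeR adjusted p = 0.00497). BPTF was also lower in knockout DMSO cells (log2 -0.44, SE 0.10, edgeR adjusted p = 0.0142), a call lost without any of the same 4 DMSO libraries as for TXNIP. Of 12 genes that set the stability of the MYC protein, 5 rose and 4 fell in wild type and 4 rose and 4 fell in knockout; without that library 10 and 8 were called. GSK3B, the kinase that marks MYC for degradation, fell from 381 ± 4.94 to 262 ± 5.96 CPM (log2 -0.54, SE 0.05, edgeR adjusted p = 1.47e-06). In DMSO, GSK3B was higher in knockout (log2 0.32, SE 0.05, edgeR adjusted p = 0.000772) and the phosphatase subunit PPP2R5A lower (log2 -0.39, SE 0.06, edgeR adjusted p = 0.00123).

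The corepressors of MXD proteins and MNT and the complex of MGA had shares of called genes near or below those of all tested genes, 33.1% in wild type and 34.4% in knockout with JQ1. Of 10 genes of the SIN3-HDAC corepressor, 2 rose and 1 fell with JQ1 in wild type, 1 rose and 1 fell in knockout, and none was called between genotypes in DMSO. SAP30, a SIN3 subunit, rose (log2 0.77, SE 0.10, edgeR adjusted p = 2.34e-05), and RBBP4, a histone chaperone, fell (log2 -0.35, SE 0.06, edgeR adjusted p = 0.00048). Of 10 genes of PRC1.6, the complex that holds MGA, 2 rose and 1 fell in wild type and 1 rose and 1 fell in knockout. Leaving out knockout JQ1 replicate 3 gave 8438 and 7495 of 21698 tested genes called in wild type and in knockout. It gave 4 SIN3-HDAC and 3 PRC1.6 genes called in wild type and 3 of each in knockout. RING1, its ubiquitin ligase, rose (log2 0.46, SE 0.11, edgeR adjusted p = 0.00348), and TFDP2, a partner of E2F factors, fell (log2 -0.35, SE 0.06, edgeR adjusted p = 0.000528). None of the 10 germ-line genes that MGA and PRC1.6 silence passed the filter on low counts, and in wild-type DMSO the highest of them, STAG3, stood at 0.341 CPM.

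Genes whose log2 CPM followed each member most closely were sought by Pearson's r over the 12 libraries among 11250 genes whose mean reached 5 CPM. For MYC they included RPL13A (r = 0.955), DCTD (0.953), MRPS24 (0.945) and RDH10 (0.943). RPL13A has near-identical pseudogene copies, so its count is uncertain where reads could be split. The closest genes were EMC6 for MAX (0.95), DNAJC16 for MXD1 (0.986), MFN2 for MXD3 (0.882), EXOC7 for MXD4 (0.979), BEND4 for MXI1 (0.986), COL4A1 for MNT (0.952) and NRDC for MGA (0.963). Without knockout JQ1 replicate 3, r was between 0.83, for MFN2, and 0.988, for DNAJC16. The points share libraries, groups and depth, and the values are a description without a test.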

How the data were processed

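Total RNA of A375 cells was depleted of ribosomal RNA and made into directional libraries, per the labels' protocols. The submitters' processing notes name Trim Galore, cutadapt, FastQC, MultiQC, kallisto, DESeq2 and GRCh38.p10, without roles. The authors deposited estimated counts per gene symbol, which need not be whole, and a normalized signal, which equals the count divided by a factor specific to gene and library. Whether counting used the strand is not given in the sources used here. Estimated counts were rounded to whole numbers here, since the tests planned for raw counts need whole numbers. Low genes were removed with filterByExpr, libraries were scaled with TMM (factors 0.926 to 1.06), and all 12 libraries were fitted with a term per group by edgeR's quasi-likelihood test (edgeR 4.0.16, limma 3.58.1, R 4.3.3), with Benjamini-Hochberg adjustment over 21698 genes and a threshold of 0.05. CPM are TMM-scaled; correlations are on log2 CPM, prior count 2, and ratios are log2 ratios of rounded counts within a library. Intervals are 95%. Alternatives were no filter, other scalings, the authors' factors as offsets, DESeq2 1.42.0, limma on log2 of the authors' deposited signal plus 1, only the groups compared, a replicate block, and each library left out; list counts and ratios without knockout JQ1 replicate 3 were added after seeing the data. The members, the lists and the rule for naming genes (the members, up to 2 genes per list with the smallest adjusted p in 2 comparisons, and the closest genes by r) were chosen with earlier results of these data known; 2 genes that the rule names are not reported here. The scripts were tested on simulated data. Replicate numbers were not used to pair libraries in the main fit.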

Additional observations from a re-analysis of the deposited data

How the results depend on the processing

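Scaling by library totals alone moved the median log2 change of all genes with JQ1 from -0.03 to -0.16 in wild type and from 0.00 to -0.12 in knockout. Calls then split into 2298 higher and 5368 lower in wild type (3665 and 3522 with TMM), 2409 and 5250 in knockout (3616 and 3856), and 516 and 1158 between genotypes in DMSO (754 and 964). In sign, MXD1 and MXD4 stayed higher and MXI1 lower with JQ1 in both genotypes under each scaling. The wild-type call of MXI1 was lost without a filter and with the authors' factors (edgeR adjusted p = 0.154 and 0.0591). It was also lost with limma (limma adjusted p = 0.0628). The count of members called between genotypes in DMSO was 2 without a filter, with RLE size factors, with DESeq2 and with only the groups compared, and under JQ1 it was 1 with RLE and DESeq2. The change of MYC with JQ1 in knockout was called at -0.39 with library totals, -0.39 with the authors' factors and -0.41 with limma, and its difference between genotypes under JQ1 at 0.37 with RLE and 0.37 with DESeq2. Genes called under JQ1 were 918 with only the groups compared, and interaction calls were 236 without a filter and 139 with DESeq2, against 1860 and 29.

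Changes of sign were found for values near 0: for MYCL with JQ1 in wild type, 0.013 with the authors' factors and 0.039 with limma; for MYCL between genotypes in DMSO, 0.075 and 0.11; with library totals, MXD3 with JQ1 in knockout -0.0039 and, between genotypes in DMSO, MXI1 -0.0025 and MGA -0.016. Between genotypes under JQ1, MAX was -0.0041 without a filter, -0.025 with library totals, -0.087 with the authors' factors and -0.0899 with limma, and MXD3 was -0.0077, -0.027, -0.0296 and -0.032. The MNT interaction was -0.016 without a filter, -0.0067 with RLE, -0.035 with the authors' factors, -0.0087 with DESeq2, -0.054 with limma and -0.0098 with the replicate block.

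With each library left out in turn, genes called ran from 1099 to 2665 between genotypes in DMSO (2665 without knockout JQ1 replicate 3, 1109 without knockout DMSO replicate 3, 1114 and 1099 without wild-type DMSO replicates 1 and 2), from 1232 (without wild-type JQ1 replicate 2) to 2351 under JQ1, and from 8 to 92 for the interaction (92 without knockout JQ1 replicate 3). Members called ran from 2 (without knockout DMSO replicate 1) to 5 with JQ1 in knockout, from 1 to 2 between genotypes in DMSO and from 0 to 1 under JQ1. MYC ran from -0.42 to -0.19 with JQ1 in knockout and from 0.22 to 0.45 between genotypes under JQ1. With JQ1 in wild type, MYCL ran from -0.21 to 0.22, MGA from -0.051 to 0.018 and MNT from -0.15 to 0.043, and in knockout MNT ran from -0.26 to 0.10. Between genotypes in DMSO, MYCL ran from -0.18 to 0.22, MGA from -0.0042 to 0.078 and MAX from -0.0059 to 0.12; under JQ1, MAX ran from -0.019 to 0.046, MXD3 from -0.10 to 0.093 and MNT from -0.085 to 0.28. Interactions ran from -0.20 to 0.16 for MNT, -0.29 to 0.014 for MXD4, -0.018 to 0.091 for MXD1, -0.11 to 0.015 for MAX and -0.42 to 0.0024 for MYCL. Without knockout JQ1 replicate 3, genes called with JQ1 in wild type were 14 of the MYC-induced list (9 with it), 6 cofactors (3) and 2 of the MLX arm (1), and between genotypes in DMSO 5 turnover genes (3) and 2 cofactors (1). Under JQ1 they were 4 turnover genes (2), 2 of PRC1.6 (0), 1 of SIN3-HDAC (2) and 1 MYC-repressed gene (2), and 1 MYC-repressed gene was called in the interaction (0). With JQ1 in wild type, all genes called were 8438 without knockout JQ1 replicate 3 (7187 with it). That library is in neither group of the wild-type JQ1 comparison or of the genotype comparison in DMSO. It enters them through the scaling and the estimates of spread that all libraries share. In wild type the MXD4 change was 0.55 with and without it, at SE 0.13 and 0.09. For MYCL the change was -0.03 both times, at SE 0.24 and 0.25. Causes were not tested.

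With the replicate block, genes called were 6789, 7136, 1487, 1569 and 21 over the 5 comparisons, the members called stayed at 3, 4, 1, 0 and 0, and MYC was -0.14, -0.28, 0.50, 0.36 and -0.14. Same-numbered libraries deviated together no more than others (r from -0.486 to 0.374 over 18 pairs, against -0.486 to 0.4 over 36). Deviations within a group of 3 depend on each other, so these ranges cannot exclude a shared culture or batch. The labels do not say whether same-numbered samples share more than a number. Depth limits MYCN and the germ-line genes, and 3 replicates limit small changes.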

Other observations

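The authors' normalized signal divides each count by a factor that depends on gene and library. Relative to the library's overall scale, this factor differed between the highest and the lowest library by 1.39 times for MYC, 1.37 times for MYCL, 1.18 times for MAX and 1.16 times for MXD3, and by 1.01 times for MXD1 and MXD4, where the median over all genes was 1.03 times. In that signal MYC read 285, 384 and 302 in wild-type DMSO, 291, 262 and 307 in wild-type JQ1, 462, 467 and 461 in knockout DMSO and 321, 317 and 416 in knockout JQ1. On this scale the mean was 324 ± 52.9 in wild-type DMSO and 463 ± 3.13 in knockout DMSO (SD, n = 3), with wild-type DMSO replicate 2 the highest of the wild-type libraries, whereas in CPM the wild-type DMSO libraries, at 10.6 ± 0.317, were the closer set and the knockout DMSO libraries stood at 14.9 ± 0.92.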
